A study of Mus musculus with 12 samples.

Results

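Gene expression was compared between mice numbered 4, 7 and 11 and mice numbered 3, 5 and 9 of a heat tolerance study, all 12 mice of the series. Each number ends the title of 1 mouse labeled heat tolerant (TOL) and 1 mouse labeled heat intolerant (INT). Mice 4, 7 and 11 were therefore 3 TOL and 3 INT mice, and mice 3, 5 and 9 were likewise 3 TOL and 3 INT mice, which makes 6 arrays against 6. Nothing in the labels says what a number stands for. The numbers were sorted into these sets after the values of these arrays had been seen, with a gene table that the study made from the same mice as the guide. Every difference between the sets below is thus a description without a p-value.

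All 12 were male C57BL/6J mice aged 10 to 12 weeks with an implanted temperature transponder, and all had gone through a heat test in a chamber set to 39.5°C for at most 3 h. No mouse without heat exposure was on these arrays. TOL and INT were assigned by the study from the core temperature during that test, and the gastrocnemius, a calf muscle of mainly fast fibers, was removed on the following day. RNA of each mouse was hybridized to 1 array of an Illumina MouseWG-6 v2 BeadChip, a chip that carries several arrays side by side. A separate free-text field calls all 12 mice heat intolerant and was not used. Which arrays shared a chip was not known here, so the sets may have lain on different chips, and a chip effect was not tested.

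Heat and unfolded proteins activate the transcription factor HSF1, which binds inverted repeats of the bases GAA and turns on chaperones such as Hsp70 (Hspa1a and Hspa1b) and its partner Hsp40 (Dnajb1). Immediate early genes such as Fos and the Egr family are turned on within minutes by growth factors, contraction, stretch or handling, through serum response factor and CREB, and their transcripts are short-lived. Small heat shock proteins and filamins hold the Z-disc and actin filaments of muscle together under mechanical load. The 6 marker genes that describe the split come from these systems, from feedback inhibitors and mRNA decay factors, and from contraction-responsive genes. Hspb7 is a small heat shock protein of heart and skeletal muscle, Dnajb1 is the inducible Hsp40, Egr2 is a zinc finger transcription factor, Errfi1 is a feedback inhibitor of the EGF receptor, Zfp36 is an mRNA decay factor and Slc25a25 is an ATP-magnesium carrier of mitochondria.

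Values are normalized log2 intensities, so that a difference of 1 is a 2-fold difference, and each difference is mice 4, 7 and 11 minus mice 3, 5 and 9 with the label as covariate. Levels of different genes are not comparable, since each probe has its own brightness. Of 45281 probes, 15570 (34.4%) were detected on at least 6 arrays and were analyzed, and they stood for 9034 genes. The 2 sets of arrays were alike in depth, with 15179 to 17017 probes detected in mice 4, 7 and 11 and 15337 to 16769 in mice 3, 5 and 9, and with median raw signals of 72.2 to 73.4 and 71.5 to 74.0. Skeletal muscle was the tissue measured, as 10 of 10 muscle marker genes were tested and their mean level lay between 12.60 and 12.71 in mice 4, 7 and 11 and between 12.54 and 12.68 in mice 3, 5 and 9. The array of TOL mouse 11 stood apart from the rest. Its mean correlation with the other arrays was 0.9732, against 0.9812 to 0.9873 for the other 11, and its score on the first principal component was -39.66, against -12.41 to 9.25.

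**Figure D1:**
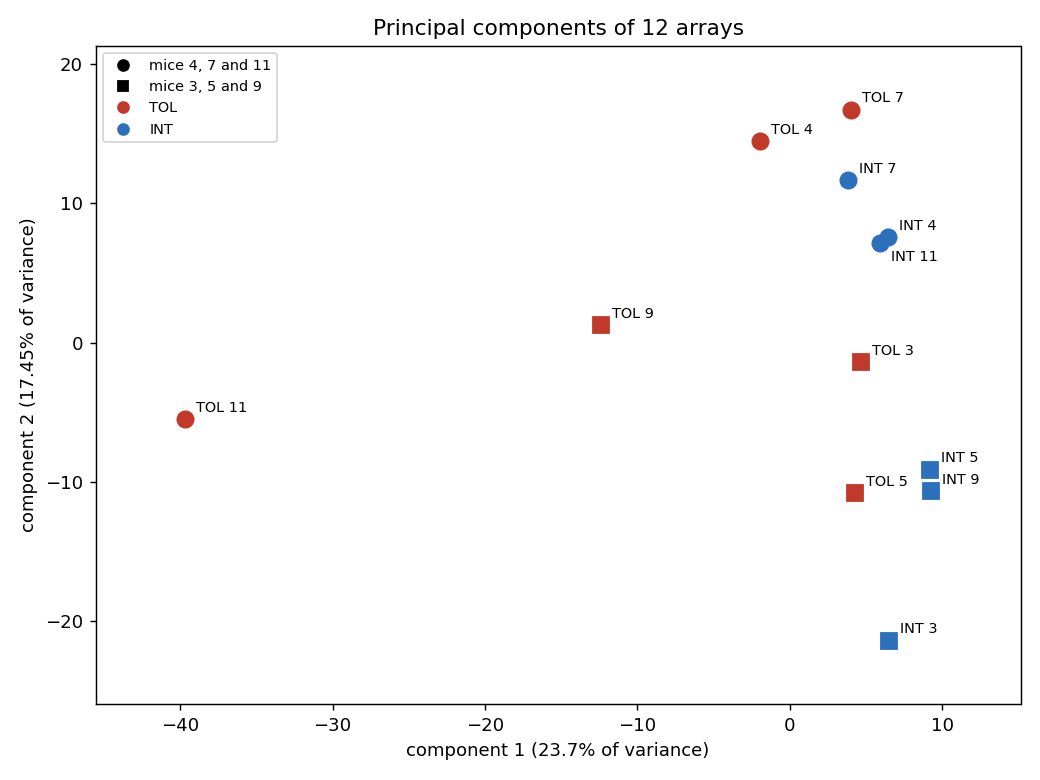
Scores of the 12 arrays on principal component 1 (23.7% of the variance, horizontal axis) and component 2 (17.45%, vertical axis), without units, with a point per mouse. TOL mouse 11 lies alone at -39.66 on component 1, while component 2 runs from -5.47 to 16.73 in mice 4, 7 and 11 and from -21.39 to 1.28 in mice 3, 5 and 9.

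The difference between the sets was large in few genes. Over 2-fold higher in mice 4, 7 and 11 were 14 genes (0.155% of 9034), and over 2-fold lower were 5 genes (0.0553%). The 14 higher genes were Hspa1a, Dnajb1, Egr3, Egr2, Nmrk2, Odf3l2, Egr1, Errfi1, Zfp36, Slc25a25, Fos, Smox, Ccn1 and Abra, and the 5 lower genes were Mustn1, Hspb7, Flnc, Cish and Serpina3n. A difference of 0.5 or more on the log2 scale, in either direction, was seen in 135 genes (1.49%), and the median over all genes was -0.01. Over single probes, 20 (0.128%) were over 2-fold higher and 9 (0.0578%) over 2-fold lower. That split was 120 to 94 in the value table deposited by the authors and 20 to 14 with the arrays weighted by their quality.

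Few genes kept the 6 mice of one set entirely apart from the 6 mice of the other. Every mouse 4, 7 and 11 was above every mouse 3, 5 and 9 in 20 genes (0.221%), and below in 43 genes (0.476%). In probes these counts were 42 (0.27%) and 65 (0.417%), and 33 and 31 when arrays were scaled by their medians. Of the 19 genes that differed over 2-fold, 18 overlapped between the sets and 1, Abra, did not. Leaving out the mouse that stood apart, TOL mouse 11, gave 59 genes above and 80 below. Leaving out TOL mouse 9 gave 52 above and 134 below.

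None of the 6 markers separated all mice of the sets, although Dnajb1 came close. Dnajb1 was at 10.73, 10.25 and 9.77 in TOL mice 4, 7 and 11, against 6.41, 6.49 and 6.31 in TOL mice 3, 5 and 9. The INT mice 4, 7 and 11 were at 6.72, 8.09 and 7.57, against 6.27, 6.74 and 6.33 in INT mice 3, 5 and 9. The TOL sets were thus far apart, and the INT sets were kept from separating by INT mouse 4, which lay just below INT mouse 5. The difference was 2.43 with a standard error of 0.40, or 5.4-fold, and it was 14.4-fold among TOL mice and 2.02-fold among INT mice.

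Hspa1a, the inducible Hsp70, had the largest difference of all genes, 2.87 with a standard error of 0.75 or 7.31-fold, and it came from 3 mice. It was at 10.04, 8.88 and 12.41 in TOL mice 4, 7 and 11, while the other 9 mice lay between 4.64 and 6.26. Among TOL mice the difference was 5.38, and among INT mice it was 0.36, with 4.98, 6.26 and 5.52 in mice 4, 7 and 11 against 4.64, 5.29 and 5.74 in mice 3, 5 and 9. Without TOL mouse 11, the difference over both labels was 2.15. Hspa1b, a nearly identical copy whose transcript may bind the same probes, was at 5.48, 5.22 and 7.75 in TOL mice 4, 7 and 11 and between 4.20 and 4.49 in the other 9 mice. Its probe was detected in 5 of 6 mice 4, 7 and 11 and 4 of 6 mice 3, 5 and 9, so the lower levels sit close to the background. Its difference was 0.89, and 0.43 without TOL mouse 11.

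The immediate early genes followed another set of mice. Egr2 was at 7.42 and 7.36 in TOL mice 4 and 7 and at 7.05 and 6.95 in INT mice 7 and 11, but at 4.60 in TOL mouse 11 and 4.45 in INT mouse 4. Mice 3, 5 and 9 were between 4.24 and 4.72, except INT mouse 5 at 5.70. So 4 of the 6 mice 4, 7 and 11 were high and the remaining 2 lay within the range of mice 3, 5 and 9. The difference of Egr2 was 1.61 with a standard error of 0.48, or 3.06-fold. Its probe was detected in 5 of 6 mice 3, 5 and 9, and its lower levels sit close to the background. The difference was 0.84 without background correction and 2.64 in the values that the authors deposited.

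Errfi1 and Zfp36 shared this order in part. Errfi1 was at 10.09, 10.36 and 9.53 in TOL mice 4, 7 and 11 and at 8.0, 9.91 and 10.02 in INT mice 4, 7 and 11. It was at 7.83, 8.0 and 7.88 in TOL mice 3, 5 and 9 and at 8.01, 9.76 and 7.87 in INT mice 3, 5 and 9. Hence INT mouse 4 and INT mouse 5 lay on the other set's level, and TOL mouse 11 also lay below INT mouse 5. The difference was 1.43 with a standard error of 0.37. Zfp36, which shortens the life of AU-rich transcripts including those of immediate early genes, averaged 8.03 ± 0.94 in mice 4, 7 and 11 and 6.76 ± 0.69 in mice 3, 5 and 9 (SD, n = 6 each), a difference of 1.27.

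Slc25a25 and Hspb7 differed with less spread among the mice of a set. Slc25a25 had a lowest, median and highest level of 7.25, 8.03 and 8.26 in mice 4, 7 and 11 and of 5.81, 6.73 and 7.34 in mice 3, 5 and 9, with a difference of 1.25 and a standard error of 0.23. It overlapped through INT mouse 5 at 7.34, above INT mouse 4 at 7.32 and INT mouse 11 at 7.25. Hspb7 was the marker that was lower in mice 4, 7 and 11, at 8.28, 7.13 and 7.66 in TOL mice and 6.96, 7.72 and 6.97 in INT mice. Mice 3, 5 and 9 were at 8.95, 8.57 and 7.88 when TOL and 9.04, 9.41 and 9.46 when INT, and only TOL mouse 9 and TOL mouse 4 crossed. The difference was -1.43 with a standard error of 0.26, or 2.7-fold lower, and it was -0.78 among TOL mice and -2.08 among INT mice.

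**Figure D2:**
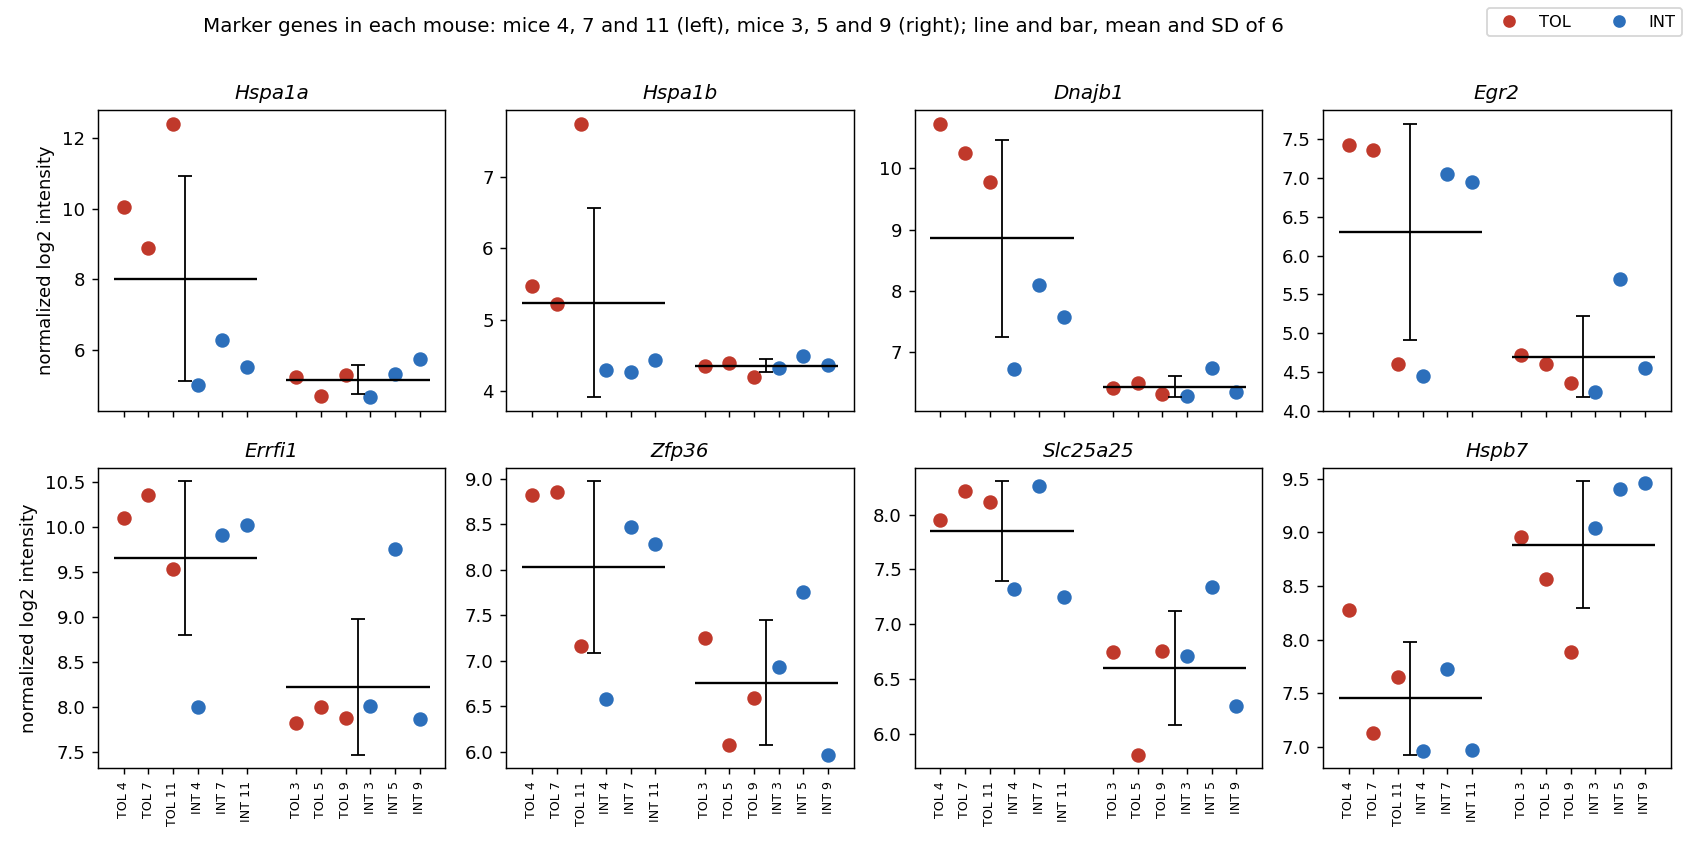
Normalized log2 intensity (vertical axis) of the marker genes and of Hspa1a and Hspa1b in each mouse (horizontal axis), mice 4, 7 and 11 on the left and mice 3, 5 and 9 on the right of each panel, with the mean and SD of 6 mice as line and bar. Hspa1a is above 8 only in the 3 TOL mice 4, 7 and 11, while Egr2 is above 6 in TOL mice 4 and 7 and INT mice 7 and 11.

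Promoter sequences are shown for the marker genes whose letters hold a motif of HSF1, serum response factor or CREB, to show the letters themselves. The 250 bases before each start site were read from RefSeq (GRCm38.p6), where all 8 genes (the 6 markers, Hspa1a and Hspa1b) had an entry. Both strands were searched for GAANNTTC, an inverted pair of the bases GAA, for the CArG box of serum response factor, and for TGACGTCA, the cAMP response element. Each was found at 1 or more of the start sites of 2 of the 8 genes, which have 16 start sites between them. Counted per gene in the same way, 7.73%, 1.62% and 1.77% of 27025 genes held the motifs, and per promoter 6.69%, 1.47% and 1.55% of 32851. Hspa1a and Hspa1b are near-identical copies and count as 1 sequence rather than 2. Hspa1a at chr17:34972223-34972290, minus strand, holds the heat shock repeat 104 bases before its start, and the promoter of Hspa1b, identical to it at 247 of 250 bases, holds it as well. The Egr2 stretch at chr10:67537767-67537836, plus strand, comes from 1 of its 5 annotated starts. All but the first of these 5 starts held a CArG box, and another box of Egr2, at chr10:67537464-67537533, is not shown. Zfp36 at chr7:28379247-28379316 is on the minus strand. Errfi1 at chr4:150854989-150855056, plus strand, is 1 of 2 starts, and Slc25a25 at chr2:32424179-32424246, minus strand, is 1 of 3. Capitals mark the motif, with 30 bases on either side.
Hspa1a: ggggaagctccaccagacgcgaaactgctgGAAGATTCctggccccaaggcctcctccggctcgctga
Egr2: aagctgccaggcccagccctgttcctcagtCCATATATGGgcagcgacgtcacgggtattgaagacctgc
Zfp36: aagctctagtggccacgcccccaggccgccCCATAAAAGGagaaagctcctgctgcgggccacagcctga
Errfi1: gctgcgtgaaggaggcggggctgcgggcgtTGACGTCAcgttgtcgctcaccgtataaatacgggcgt
Slc25a25: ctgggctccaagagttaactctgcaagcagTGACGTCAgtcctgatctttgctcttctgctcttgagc
A match is a run of letters only, and no binding was measured. Neither start site of Dnajb1, which was high in TOL mice 4, 7 and 11 like Hspa1a, held any of the 3. Other arrangements of GAA repeats, and bases beyond these 250, were not searched, so whether Dnajb1 holds a heat shock element was not tested.

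Among the inducible chaperones, 20 of 26 listed genes could be analyzed, and mice 4, 7 and 11 had higher means in 13 and lower means in 7, with a median difference of 0.16. Over all genes, 45.7% were higher. Without TOL mouse 11 the median was 0.03. Hsp90aa1, the inducible cytosolic Hsp90, was at 7.73 in that mouse. The other 5 mice 4, 7 and 11 were between 4.25 and 5.50, and mice 3, 5 and 9 between 4.14 and 4.98, where the lower levels sit close to the background. The difference was 0.78, 0.34 without TOL mouse 11 and 1.81 in the values that the authors deposited. Bag3, a co-chaperone of Hsp70 in the removal of damaged filamin, was at 12.45 in TOL mouse 11 and between 10.84 and 11.06 in the other mice 4, 7 and 11, against 10.58 to 11.40 in mice 3, 5 and 9. Its difference was 0.21, and -0.06 without TOL mouse 11. Hsph1, an Hsp110 nucleotide exchange factor, differed by 0.22, with the lowest level of all mice, 7.65, in TOL mouse 9, and by -0.06 without that mouse and 0.10 without TOL mouse 11.

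Of the Hsp40 family, Dnajb1 included, 9 of 28 tested genes were higher and 19 lower, and the median was -0.04. Dnajc27, another member, kept the sets apart, with 6.85 to 7.14 in mice 4, 7 and 11 and 6.56 to 6.85 in mice 3, 5 and 9, a gap smaller than the decimals shown, and differed by 0.30. The mitochondrial chaperones had a median of -0.04 over 14 genes. Within that list the partners Hspe1 and Hspd1, the mitochondrial Hsp10 and Hsp60, differed by -0.98 and -0.10, and Hspd1 by -0.31 without TOL mouse 11. Hspe1 was at 6.73, 6.43 and 8.10 in TOL and 6.61, 6.87 and 6.76 in INT mice 4, 7 and 11, against 8.30, 7.87 and 6.40 in TOL and 8.17, 8.48 and 8.16 in INT mice 3, 5 and 9. Thus 5 of 6 mice of each set lay on their own side, and TOL mouse 11 and TOL mouse 9 lay on the other.

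All 7 small heat shock proteins were lower on average in mice 4, 7 and 11, with a median of -0.31, and the median was 0.01 among TOL mice and -0.39 among INT mice. Hspb1, the actin-protecting Hsp25 of mice, was at 8.69, 8.96 and 8.69 in INT mice 4, 7 and 11, against 9.96, 10.15 and 10.52 in INT mice 3, 5 and 9. Among TOL mice it was at 9.46, 9.33 and 11.33 in mice 4, 7 and 11, against 9.68, 10.55 and 9.25 in mice 3, 5 and 9, which overlapped. Over both labels its difference was -0.61, and -0.98 without TOL mouse 11. Cryab, the desmin-binding alpha-B crystallin, was at 10.49, 10.49 and 10.29 in INT mice 4, 7 and 11, against 11.33, 11.66 and 11.32 in INT mice 3, 5 and 9. Over both labels it differed by -0.43, and by -0.71 without TOL mouse 9. The smallest difference of the family was that of Hspb2, -0.0047, which is near 0.

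Immediate early genes were higher on average in 17 of 22 tested, with a median of 0.52, which was 0.90 among TOL mice and 0.22 among INT mice. The median was 0.25 without background correction and 1.15 in the values that the authors deposited. Egr1 was at 11.15, 11.15 and 6.92 in TOL mice 4, 7 and 11, at 8.19 in INT mouse 4 and at or above 10.92 in INT mice 7 and 11. Mice 3, 5 and 9 were at 9.10, 7.71 and 8.13 when TOL and 8.22, 10.45 and 7.06 when INT. So the lowest Egr1 of the 12 was in a mouse 11, and its difference of 1.44 had a standard error of 0.70. Egr3 differed by 1.89, Fos by 1.18, Junb by 0.96 and Ccn1, a matricellular protein induced by serum and stretch, by 1.16. Without background correction these were 1.10 for Egr3, 0.70 for Fos, 0.59 for Junb and 0.58 for Ccn1.

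Over Egr1, Egr2, Egr3, Fos, Junb and Ccn1, chosen after their values were seen, the mean level of each mouse was 8.11 and 8.22 in TOL mice 4 and 7 and 7.83 and 7.60 in INT mice 7 and 11. It was 5.04 in TOL mouse 11 and 5.39 in INT mouse 4. Mice 3, 5 and 9 were at 6.05, 5.17 and 5.44 when TOL and 5.39, 6.92 and 4.94 when INT. The same 4 mice were therefore high together, INT mouse 5 came next, and the 7 others lay at 6.05 or below.

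Jun, Atf3 and Csrnp1, also transcription factors of the immediate early list, were high in TOL mouse 11 as well. Jun kept the sets apart, with 6.36, 6.44 and 7.21 in TOL and 5.56, 5.52 and 5.79 in INT mice 4, 7 and 11, against 5.29, 5.44 and 5.51 in TOL and 5.45, 4.98 and 5.49 in INT mice 3, 5 and 9. Its difference was 0.79 with a standard error of 0.18, although the sets came within 0.01 of each other. Atf3, a stress-induced factor, was at 7.27 in TOL mouse 11 and between 4.27 and 5.22 in the other mice 4, 7 and 11. Mice 3, 5 and 9 were at 4.22 to 4.48. Its probe was detected in 5 of 6 mice 4, 7 and 11 and 3 of 6 mice 3, 5 and 9, so the lower levels sit close to the background. The difference was 0.83, and 0.44 without TOL mouse 11. It was 0.36 without background correction and 2.17 in the values that the authors deposited.

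The feedback inhibitors and mRNA decay factors, to which Errfi1 and Zfp36 belong, were higher in 9 of 16 genes, with a median of 0.09 and of -0.01 without TOL mouse 11. Cish, a STAT5 target that dampens cytokine signaling, differed the other way among the TOL mice. It was at 6.72, 6.65 and 6.74 in TOL mice 4, 7 and 11, against 8.92, 8.53 and 9.12 in TOL mice 3, 5 and 9, a difference of -2.15. The INT mice were at 9.03, 7.38 and 9.71 in mice 4, 7 and 11, against 7.58, 9.49 and 9.0 in mice 3, 5 and 9, a difference of 0.02. A test of whether the 2 differences were unequal gave an adjusted p of 0.755 (limma).

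Contraction-responsive genes and targets of PGC-1, the coactivator of mitochondrial genes, were higher in 13 of 19 tested, with a median of 0.43 that was 0.43 among TOL mice and 0.40 among INT mice. Abra, an actin-binding activator of serum response factor signaling in striated muscle, was the gene of largest difference among those that kept the sets apart. Its lowest, median and highest level was 10.34, 10.57 and 11.81 in mice 4, 7 and 11, against 9.02, 9.72 and 10.12 in mice 3, 5 and 9. The difference was 1.12 with a standard error of 0.24, and 0.89 without TOL mouse 11. Ppargc1a, which encodes PGC-1alpha, differed by 0.73, or 0.45 without TOL mouse 11, and overlapped, with 6.53 to 8.34 in mice 4, 7 and 11 and 6.11 to 6.90 in mice 3, 5 and 9.

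Other genes that kept the sets apart had narrow ranges in both. Kcng4, a modulatory subunit of voltage-gated potassium channels, ran from 6.15 to 7.0 in mice 4, 7 and 11 and from 5.24 to 6.03 in mice 3, 5 and 9. Dupd1, a dual specificity phosphatase of muscle, ran from 7.38 to 8.30 in mice 4, 7 and 11 and from 6.38 to 7.22 in mice 3, 5 and 9, with the same difference of 0.98 in each label. Sh3kbp1, an adaptor in receptor endocytosis, differed by 0.84, the T-box transcription factor Tbx15 by 0.63, the phospholipid flippase Atp8a1 by 0.57, the Rac activator Tiam1 by 0.54 and Vasn, a binder of TGF-beta, by 0.47. Among the genes below in every mouse 4, 7 and 11 were Panx1, a large-pore channel of the plasma membrane, at -0.77, the retinol-binding protein Rbp7 at -0.69, Bex4 at -0.67 and Pdlim3, which binds alpha-actinin at the Z-disc, at -0.57. Pdlim3 had the smallest standard error of these, 0.07, with 11.64 to 11.92 in mice 4, 7 and 11 and 12.23 to 12.47 in mice 3, 5 and 9.

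Smox, the spermine oxidase, was 2.25-fold higher in mice 4, 7 and 11, and its 5 tested probes differed by 1.16 to 1.38. Its chosen probe overlapped through 1 mouse, with 10.93 to 12.10 in mice 4, 7 and 11, while in mice 3, 5 and 9 it lay between 9.46 and 10.18 except in TOL mouse 9, which reached into the range of the other set. Amd2, an S-adenosylmethionine decarboxylase of polyamine synthesis whose copy Amd1 may share its probe, differed by 0.90. It was at 7.26, 7.23 and 7.12 in INT mice 4, 7 and 11, against 5.36, 5.56 and 6.28 in INT mice 3, 5 and 9. Over the 9 tested genes of polyamine and methionine metabolism the median was 0.07. Odf3l2, chosen after its values were seen, differed by 1.54, and by 1.03 without TOL mouse 11, where it was at 10.42.

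The Z-disc and mechanical-stress list had a median of -0.02, with 10 of 23 genes higher. Over 2-fold lower were 2 of the 23, where 0.0553% of all genes were, in a list chosen with earlier results of these data known. Mustn1, a small nuclear protein of developing and regenerating muscle, was at 8.88, 8.60 and 9.49 in TOL and 8.78, 8.63 and 8.60 in INT mice 4, 7 and 11. Mice 3, 5 and 9 were at 10.47, 10.47 and 9.15 when TOL and 11.24, 11.59 and 11.18 when INT. Only TOL mouse 9 and TOL mouse 11 fell within the range of the other set, and the INT mice of the sets were over 2 log2 units apart. The difference was -1.86 with a standard error of 0.28, or 3.62-fold lower, and a second probe gave -1.88.

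Flnc, the muscle filamin that Hspb7 binds, had a similar order. It was at 10.74, 10.40 and 11.73 in TOL and 10.61, 10.80 and 10.73 in INT mice 4, 7 and 11, against 11.61, 11.93 and 10.75 in TOL and 12.23, 12.45 and 12.48 in INT mice 3, 5 and 9. The difference was -1.07 with a standard error of 0.25. Csrp3, the muscle LIM protein of the same list, differed by -0.04, with 1.16 among TOL mice and -1.25 among INT mice. The TOL difference rested on TOL mouse 5 at 5.96, the lowest of the 12. TOL mice 3 and 9 were at 9.66 and 8.72, against 9.49, 8.82 and 9.53 in TOL mice 4, 7 and 11. Without TOL mouse 5 the difference over both labels was -0.65. A test of whether the TOL and INT differences were unequal gave an adjusted p of 0.814 (limma).

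Serpina3n, an acute-phase protease inhibitor chosen after its values were seen, was at 4.55, 4.60 and 8.15 in TOL and 5.16, 4.94 and 4.74 in INT mice 4, 7 and 11. Mice 3, 5 and 9 were at 6.63, 6.54 and 5.55 when TOL and 6.73, 6.73 and 6.36 when INT. TOL mouse 11 was the highest of all 12 and the other 5 mice 4, 7 and 11 were the lowest, so the difference of -1.07 was -1.66 without it.

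Nmrk2, a muscle kinase that makes NAD precursors from nicotinamide riboside, differed among the INT mice. It was at 9.27, 8.61 and 9.49 in INT mice 4, 7 and 11, against 5.54, 6.39 and 5.48 in INT mice 3, 5 and 9, a difference of 3.33 or about 10.0-fold. Among TOL mice it was at 8.98, 9.08 and 8.32 in mice 4, 7 and 11, against 8.90, 9.41 and 8.41 in mice 3, 5 and 9, a difference of -0.12. The 3 INT mice 3, 5 and 9 were therefore below the other 9, which lay between 8.32 and 9.49.

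The 3 tested probes of Nmrk2 did not all share this order. A second one put INT mice 4, 7 and 11 at 6.38, 5.79 and 6.97, against 4.37, 4.50 and 4.23 in INT mice 3, 5 and 9. The third went the opposite way, with 5.91, 6.29 and 5.93 in INT mice 4, 7 and 11, against 7.25, 7.09 and 6.75 in INT mice 3, 5 and 9. Over the 12 mice the second probe differed by 0.97 and the third by -0.52. Which transcript each probe reads was not tested.

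The difference between the sets was tested for being unequal in the labels, as the difference among TOL mice minus that among INT mice, with Benjamini-Hochberg adjustment over all 15570 probes. With limma, 2 probes (0.0128%) passed at an adjusted threshold of 0.05, those of Nmrk2 at -3.44 with a standard error of 0.42 (adjusted p of 0.00838) and of Dnajb1 at 2.83 with a standard error of 0.40 (adjusted p of 0.0231). At an unadjusted p under 0.05 there were 804 probes (5.16%). Hspa1a had the largest value, 5.02, but an adjusted p of 0.142. The sets were chosen on the values of these arrays, with Dnajb1 among their markers, so no p-value of this test is independent of that choice. The spread among the mice that this test used had been narrowed by sets chosen on the same values, and with unmoderated variances 0 probes passed, with 846 at an unadjusted p under 0.05. When each mouse was left out in turn, Nmrk2 passed in 10 of 12 fits and Dnajb1 in 3 of 12. It was not past the threshold for Nmrk2 without INT mouse 11 (adjusted p of 0.0539) or INT mouse 3 (adjusted p of 0.051). Without TOL mouse 11, 6 probes passed, with an adjusted p of 0.00133 for Nmrk2, Dnajb1 and Hspa1a alike.

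Within TOL mice, 34 genes (0.376%) were over 2-fold higher and 3 (0.0332%) over 2-fold lower in mice 4, 7 and 11. Within INT mice, the counts were 20 genes (0.221%) and 20 genes (0.221%). In 8 genes the difference was over 2-fold the same way in both labels. No overlap of 3 against 3 was seen among TOL mice in 438 genes (4.85%) higher and 654 (7.24%) lower, and among INT mice in 714 (7.9%) higher and 869 (9.62%) lower. In 135 genes the sets were apart the same way within each label, and in 38 genes opposite ways. The sign of the difference was shared by 57.2% of all genes. Across genes, which are not independent, the TOL and INT differences correlated with a Pearson r of 0.254 and a Spearman rho of 0.227, given as a description over 9034 genes.

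**Figure D3:**
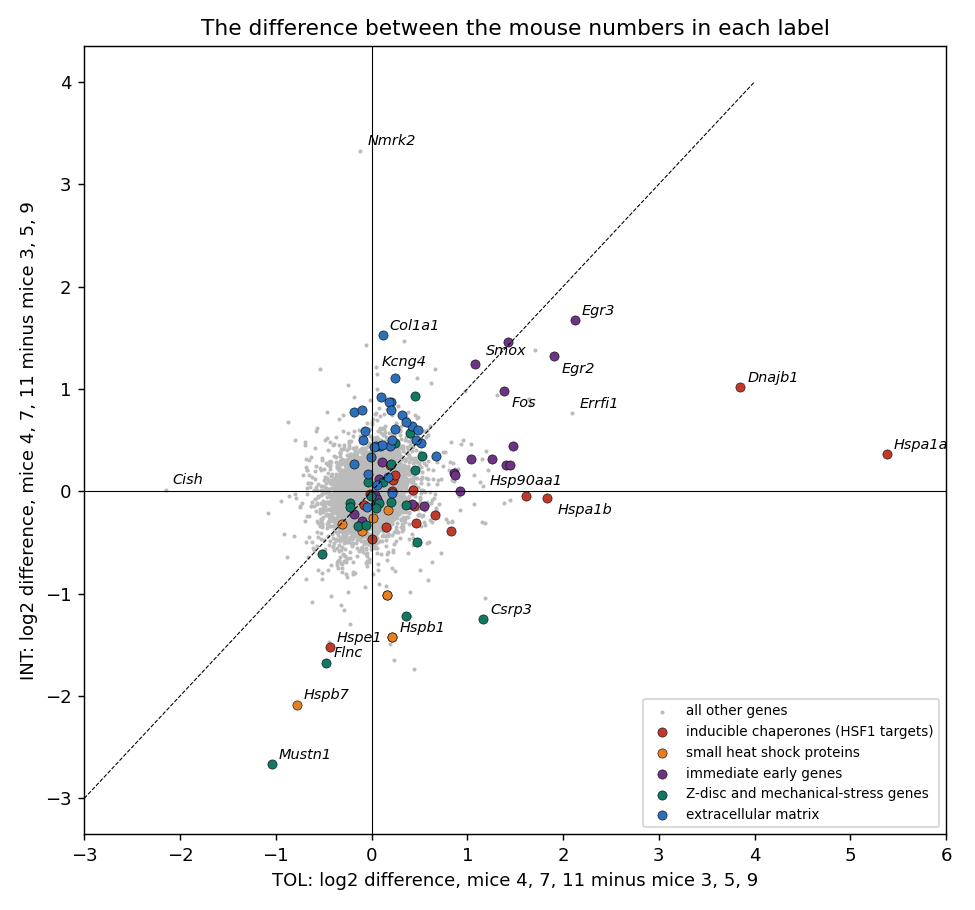
Log2 difference between mice 4, 7 and 11 and mice 3, 5 and 9 for each of 9034 genes, among TOL mice on the horizontal axis and among INT mice on the vertical axis, with named genes labeled and the dashed line at equal differences in both labels. Hspa1a lies far to the right at 5.38 and 0.36, Nmrk2 lies at the top at -0.12 and 3.33, and Mustn1 lies at the lower left at -1.04 and -2.67.

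The labels themselves were also compared with the set as covariate. With limma, 136 probes (0.873%) differed between TOL and INT mice at the same threshold, 10 higher and 126 lower in TOL mice, and 1659 probes had an unadjusted p under 0.05. None of the 59 genes described here passed, the smallest adjusted p being 0.0657 for Rbp7, which was 0.47 lower in TOL mice on the log2 scale. Dnajb1 was 1.37 higher in TOL mice with an adjusted p of 0.168, and Hspa1a was 2.35 higher with an adjusted p of 0.218.

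**Figure D4:**
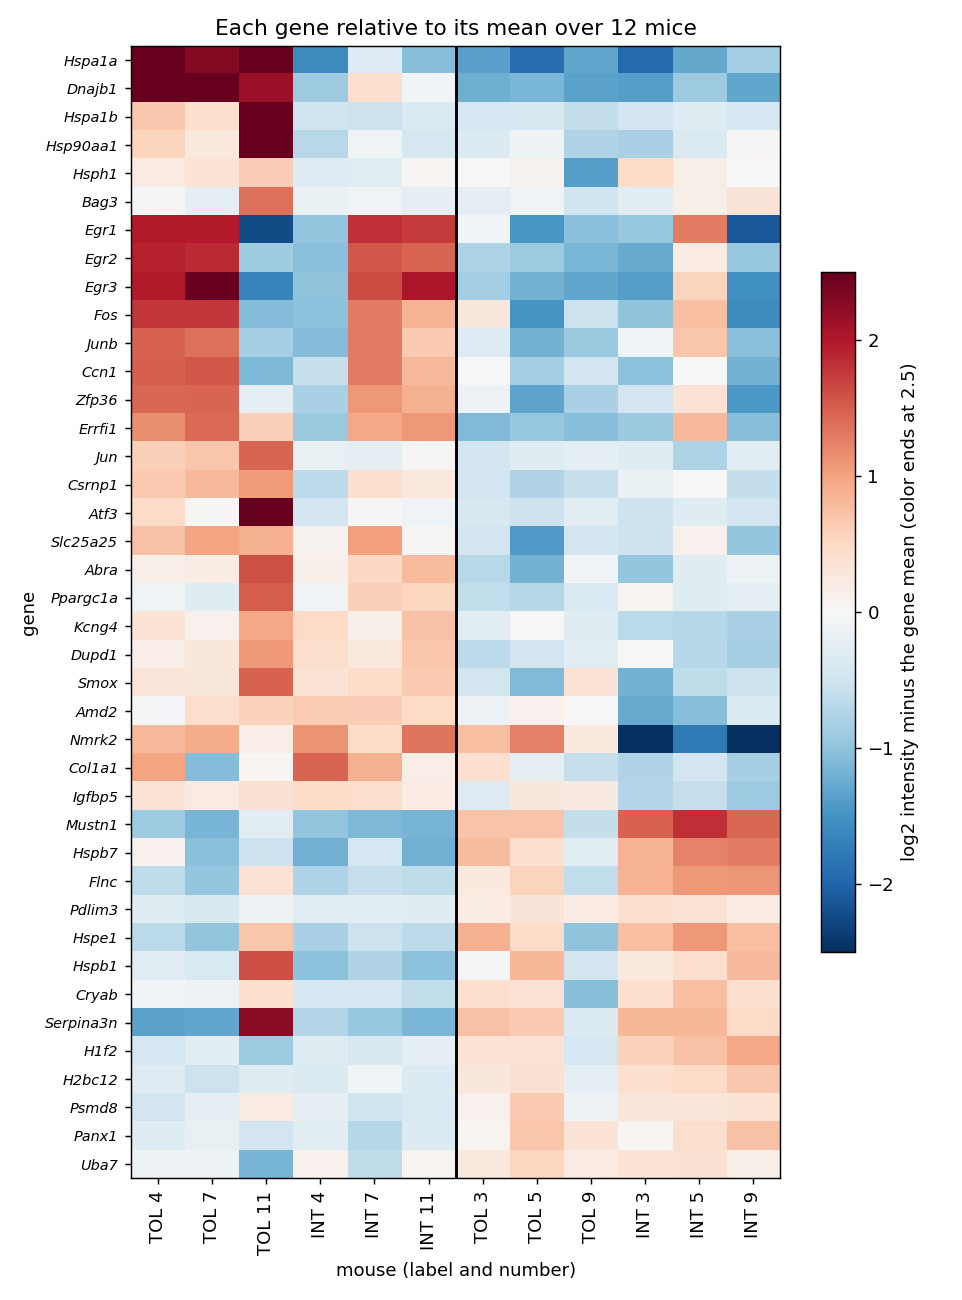
Log2 intensity of named genes (rows) minus the mean of each gene over 12 mice, in each mouse (columns, mice 4, 7 and 11 on the left and mice 3, 5 and 9 on the right), with colors ending at 2.5. Hspa1a and Dnajb1 are high in TOL mice 4, 7 and 11, Egr1 and Fos in TOL mice 4 and 7 and INT mice 7 and 11, and Mustn1 and Flnc in INT mice 3, 5 and 9.

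Histone genes were lower on average in 9 of 11 tested, with a median of -0.27. H1f2, a linker histone, was at 11.96, 12.09 and 11.48 in TOL and 12.06, 11.97 and 12.13 in INT mice 4, 7 and 11, against 12.71, 12.74 and 11.94 in TOL and 12.95, 13.11 and 13.34 in INT mice 3, 5 and 9. TOL mouse 9 was the only 1 of mice 3, 5 and 9 within the other set's range, and the difference was -0.85 with a standard error of 0.14. H2bc12 and H2bc4, H2B genes with near-identical copies that may share their probes, differed by -0.66 and -0.65.

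The proteasome, the protease that degrades ubiquitin-tagged proteins, had 28 of 31 tested subunits and activators lower in mice 4, 7 and 11, by a median of -0.19. Each difference was small. The largest was that of the lid subunit Psmd8, at -0.53, with 9.84 to 10.55 in mice 4, 7 and 11 and 10.21 to 10.99 in mice 3, 5 and 9, which overlapped. The median was -0.20 among TOL mice and -0.15 among INT mice. The catalytic subunit Psmb5 differed by -0.33 and the base ATPase Psmc4 by -0.30, both with overlap.

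Interferon-stimulated and antigen presentation genes were lower in 19 of 24, with a median of -0.15. Below in every mouse 4, 7 and 11 were 2 of the 24, where 0.476% of all genes were. Uba7, the activating enzyme for the ubiquitin-like protein ISG15, ran from 4.73 to 6.00 in mice 4, 7 and 11 and from 6.04 to 6.44 in mice 3, 5 and 9. Oasl2, an oligoadenylate synthetase-like protein, ran from 4.22 to 4.58 in mice 4, 7 and 11 and from 4.66 to 5.20 in mice 3, 5 and 9, near the background. Ifit3, which binds foreign RNA complexes, differed by -0.59.

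Extracellular matrix genes were higher on average in 30 of 31 tested, with a median of 0.34 that was 0.18 among TOL mice and 0.50 among INT mice. Col1a1, the main fibrillar collagen chain, was at 9.48, 8.92 and 8.18 in INT mice 4, 7 and 11, against 7.27, 7.54 and 7.20 in INT mice 3, 5 and 9. Among TOL mice it was at 9.0, 6.94 and 8.06 in mice 4, 7 and 11, against 8.42, 7.80 and 7.44 in mice 3, 5 and 9, which overlapped. Col1a2, its partner chain, differed by 0.54. Igfbp5, an IGF-binding protein of muscle and connective tissue, was at 11.60, 11.58 and 11.34 in INT mice 4, 7 and 11, against 10.40, 10.56 and 10.22 in INT mice 3, 5 and 9, while TOL mice differed by 0.24.

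Markers of other cell types differed beside these lists. Markers of fibroblasts and tenocytes were higher in 10 of 11 tested (median 0.27, and 0.17 without INT mouse 4), with a mean level of 6.92 to 7.58 in mice 4, 7 and 11 and 6.51 to 7.22 in mice 3, 5 and 9. Of these markers, Dcn, Lum, Col1a1, Col3a1, Pi16 and Mfap5 are also in the extracellular matrix list, so the lists are not independent. Fewer cells of a type and less RNA per cell cannot be told apart in pieces of whole muscle, and the part of these cells in the matrix result was not tested. Of the erythrocyte markers, 4 of 4 tested were higher, with a median of 0.50 that was -0.03 among TOL mice and 1.09 among INT mice, and 0.25 over both labels without INT mouse 4. Endothelial markers were lower in 10 of 13, with a median of -0.15.

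The other cell types differed less. Medians were -0.01 for 10 macrophage markers, -0.04 for 8 adipocyte markers, -0.03 for 11 smooth muscle and pericyte markers, -0.08 for 6 satellite cell markers and 0.09 for 4 neutrophil markers, which was -0.01 without TOL mouse 11. None of the 12 lymphocyte markers was detected often enough to be analyzed. The 5 markers of Schwann cells and nerve had a median of 0.33, or 0.19 without TOL mouse 4, but Egr2 was 1 of them.

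**Figure D5:**
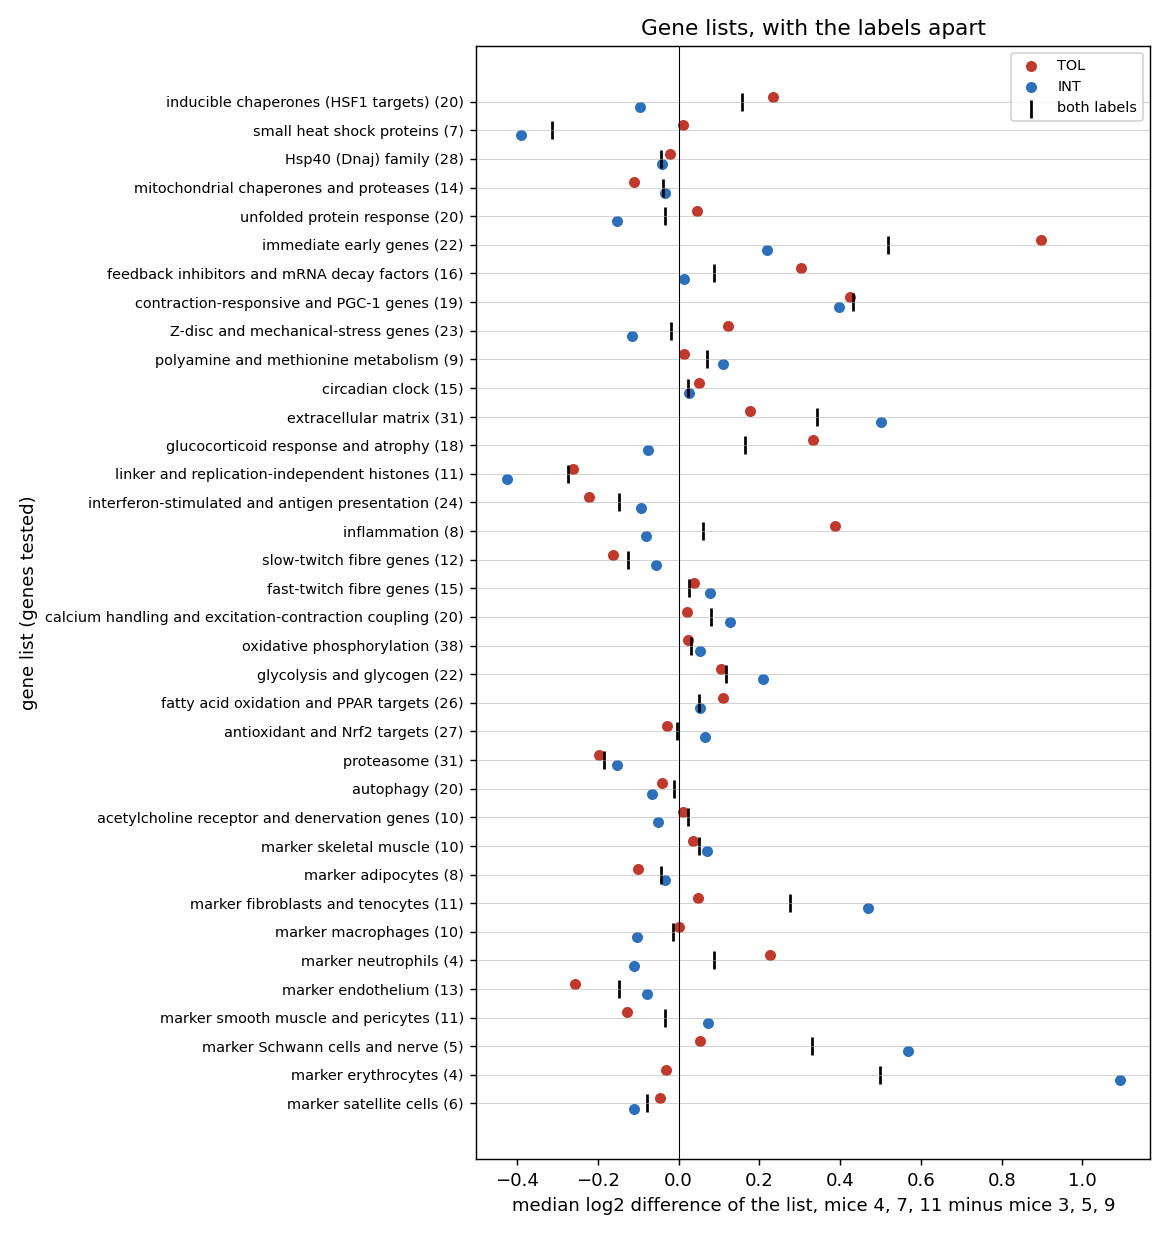
Median log2 difference between mice 4, 7 and 11 and mice 3, 5 and 9 (horizontal axis) of each gene list (vertical axis, with the number of genes tested), over all mice and with TOL and INT mice apart. Immediate early genes lie at 0.52 over all mice, extracellular matrix genes at 0.34 and small heat shock proteins at -0.31, against -0.01 for all genes.

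Metabolic and fiber type lists had medians between -0.12 and 0.12, against -0.01 over all genes. Glycolysis and glycogen genes were higher in 21 of 22, but by a median of 0.12, and fast-twitch fiber genes had a median of 0.03 over 15 genes. Slow-twitch fiber genes had a median of -0.12 over 12 genes, and between -0.29 and 0.16 when single mice were left out, and their mean level spread from 8.21 to 9.53 in mice 4, 7 and 11 and from 8.13 to 10.42 in mice 3, 5 and 9. Calcium handling genes had a median of 0.08, fatty acid oxidation genes 0.05, antioxidant genes -0.004, circadian clock genes 0.02 and autophagy genes -0.01. The glucocorticoid response and atrophy list had a median of 0.16, and of -0.02 without TOL mouse 11. Oxidative phosphorylation subunits were at 0.03 over 38 genes, and at -0.02 when arrays were scaled by their medians.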

How the data were processed

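RNA of gastrocnemius muscle from 12 mice was measured on 12 Illumina MouseWG-6 v2 arrays. The deposited signal table holds the mean intensity of each of 45281 probes read by the authors with GenomeStudio, linear, with neither background subtraction nor normalization, and a deposited detection p-value for each. The value table deposited by the authors holds processed intensities, background subtracted and quantile normalized by an unstated program. It was used only as an alternative, as log2 of values floored at 1.

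These signals were background corrected with neqc of limma 3.58.1 (R 4.3.3), which infers the background from detection p-values, then offset by 16, quantile normalized and turned into log2 values. Only probes detected (p below 0.05) in 6 or more of the 12 mice were kept. A gene took the tested probe with the highest mean over all arrays, and 3083 genes had more than 1. Of all probes, 34885 had 1 gene symbol, 18 several and 10378 none. Differences, standard errors and interactions came from lmFit and eBayes with an intensity trend and Benjamini-Hochberg adjustment, with set and label as covariates. The methods' unmoderated test was an alternative.

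The sets, the gene lists and the named genes were chosen with earlier results of these data known. Named genes were the markers with Hspa1a and Hspa1b, the 15 largest differences each way among genes without overlap, the 5 smallest interaction p-values, and up to 4 of the largest differences in each list. Mice sharing a number were not treated as pairs in the main fit, as nothing in the labels says what a number stands for. In simulated data on 15570 probes, 94% of label changes of 1 and 98% of interactions of 2 on the log2 scale were recovered. The simulated noise was independent between probes, had the pooled spread of mice of the same label and set, and held no array that stood apart. These shares are thus no measure of recovery in the real arrays. The number of mice limits the precision, and whether they came from separate cages or days is not given.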

Additional observations from a re-analysis of the deposited data

Results flagged for a closer look

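Within each set of 6 arrays, a mouse was singled out when its gap to the nearest other mouse took up a larger share of the range of the 6 than Dixon's critical value. Among 118 sets of 6 (59 genes), 25 had such a mouse, and TOL mouse 11 was that mouse in 12 of them. Chance marks about 1 in 20 sets of independent, like samples, but here the genes were picked for large differences on these values, vary together and were seen in sets that held both labels, so that share gives no chance count for these sets.

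TOL mouse 11 stood highest among mice 4, 7 and 11 in some chaperone genes and Atf3, although not in Dnajb1, where TOL mice 4 and 7 were above it. Its share of the range was 0.651 for Hspa1b, 0.64 for Hsp90aa1, 0.865 for Bag3, 0.709 for Hspb1, 0.739 for Hspe1, 0.725 for Hspd1 and 0.684 for Atf3. It was also highest in Smox (0.689), Mustn1 (0.686), Flnc (0.698) and Serpina3n (0.831), and lowest in H1f2 (0.736).

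TOL mouse 9 stood apart among mice 3, 5 and 9, lowest in Hsph1 (0.73), Cryab (0.789), Hspe1 (0.706), H2bc4 (0.718) and Serpina3n (0.688) and highest in Tiam1 (0.795). INT mouse 5 was highest among mice 3, 5 and 9 in Errfi1 (0.907), Egr2 (0.673) and Egr3 (0.667), and lowest in 2900060B14Rik (0.637), a long noncoding RNA. INT mouse 4 was lowest among mice 4, 7 and 11 in Errfi1 (0.649), TOL mouse 4 was lowest in Amd2 (0.698), and TOL mouse 5 was lowest among mice 3, 5 and 9 in Csrp3 (0.653).

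The difference among TOL mice minus that among INT mice passed limma's interaction test for Dnajb1 (2.83, adjusted p of 0.0231) and for Nmrk2 (-3.44, adjusted p of 0.00838). The sets were chosen on these values with Dnajb1 among their markers, so for Dnajb1 this describes the choice and is no independent test. The p-value of Nmrk2 is not independent of that choice either. Leaving out 1 mouse at a time, Dnajb1 passed in 3 of 12 fits and Nmrk2 in 10 of 12, and with unmoderated variances 0 probes passed. The causes were not tested.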

How the results depend on the processing

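The sets of mice were chosen on these values, so stability under other settings is no independent support. Without background correction, 10 probes were over 2-fold higher in mice 4, 7 and 11. By the values that the authors deposited, 120 were over 2-fold higher and 94 lower, and 1 probe passed the interaction test. With median scaling 31 probes lay below without overlap. With no filter on detection 78 lay above and 102 below, over 45281 probes. Over probes detected on all 12 arrays, there were 86 label calls. Array weights gave 14 probes over 2-fold lower and 4 interaction calls. The methods' unmoderated test gave 42 label calls and 0 interaction calls. The causes were not tested, apart from the number of probes in the filter settings.

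Leaving out 1 mouse at a time, probes without overlap numbered 55 to 112 above and 80 to 189 below, as fewer mice overlap less, and genes 27 to 59 above and 54 to 134 below, a count added after seeing the data. Probes over 2-fold numbered 19 to 26 higher and 7 to 15 lower, label calls 89 to 155 (89 without INT mouse 7) and interaction calls 0 to 6 (0 without INT mouse 11 or INT mouse 3, 1 without TOL mouse 3, 4, 5 or 9 or INT mouse 9, and 6 without TOL mouse 11).

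With the mouse number as replicate block, 124 probes passed for the label, 108 of them also without the block, and 3 for the interaction, 2 of them shared. Deviations from the label mean of mice sharing a number correlated between -0.007 and 0.148, and no TOL mouse correlated best with the INT mouse of its number. Those deviations still held the difference between the sets. Deviations from the mean of each label and set correlated between -0.143 and 0.063. Whether mice sharing a number had a cage or day in common was not tested. Of 1232 recomputed differences of 59 genes, 16 moved by more than the spread between mice and 19 changed sign, all in Hsph1, Bag3, Hspd1, Csrp3 and 2900060B14Rik. Of 756 recomputed list medians, 6 moved by more than the spread between mice. Without background correction the median was 0.29 for contraction-responsive genes, -0.10 for histones, -0.07 for interferon-stimulated genes, 0.14 for fibroblast markers and -0.07 for endothelial markers. By the values that the authors deposited it was -0.50 for histones, -0.23 for interferon-stimulated genes and -0.16 for satellite cell markers. The RMA background of the methods was approximated by a related estimator. Dim probes, such as those of Hspa1b and Oasl2, are limited by signal over background.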
